A study of Mus musculus with 12 samples.

Results

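Glutathione S-transferases (GSTs) are the enzymes that join the tripeptide glutathione to electrophilic compounds. The 10 GST genes described here, Gstp1, Gstp2, Gsto1, Gstt1, Gstt2, Gstt3, Gstm5, Gstk1, Mgst2, and Mgst3, were taken by symbol from a count table of 25078 mouse genes, with earlier results of these data known. In that table, 9 of the 10 had enough reads to be tested in both CD4+ and CD8+ T cells. The other, Gstp2, had 0 to 3 reads in every library and was not tested.

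RNA-Seq was performed on donor T cells sorted from the liver 6 days after hematopoietic cell transplantation (HCT). Lethally irradiated WT BALB/c recipients were given T cell-depleted bone marrow of WT C57BL/6 mice in all groups, so that recipients and marrow were WT throughout. They were given along with it T cells of C57BL/6 donors that were WT, STAT3ko, or STAT3ko PD-1ko (the names in the labels), hereafter WT, STAT3-/-, and STAT3-/-PD-1-/-. The STAT3-/- donors were Stat3 fl/fl CD4-Cre mice, in which Cre acts in T cells of both subsets because developing T cells pass through a CD4+ stage, and the STAT3-/-PD-1-/- donors carried the same alleles and a germline deletion of PD-1 (gene Pdcd1). Donor cells were sorted as H-2Kb+TCRβ+CD4+ or H-2Kb+TCRβ+CD8+ cells, where H-2Kb marks cells of C57BL/6 origin. Each of the 6 groups (3 genotypes in 2 subsets) had 2 libraries, and each library was a pool of cells from several recipients, so that p-values measure the spread between 2 pools. CD4+ and CD8+ libraries with the same number and genotype came from the same livers. The total of the 12 libraries ranged from 21676125 to 24551477 counts, and levels are given as CPM, the counts divided by the library total and scaled to a common depth, with totals adjusted by the trimmed mean of M values. In bulk libraries, fewer cells of a type and less RNA per cell cannot be told apart.

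GSTs fall into classes by sequence. The soluble pi (Gstp1, Gstp2), mu (Gstm5), theta (Gstt1, Gstt2, Gstt3), and omega (Gsto1) enzymes act mainly in the cytosol, the kappa enzyme (Gstk1) is found in mitochondria and peroxisomes, and Mgst2 and Mgst3 are membrane proteins of a separate family that also makes leukotrienes and prostaglandins. Many GST genes in liver and other tissues respond to the transcription factor NRF2 (gene Nfe2l2), which binds the antioxidant response element, and STAT3, the factor deleted in the donor T cells, binds a palindrome common to the STAT family.

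Because the donor genotypes differ in STAT3, and because NRF2 is the best-known regulator of the family, the RefSeq promoter windows of the members (GRCm38.p6, from 250 bases before to 50 bases after the annotated start) were searched on both strands for the letters TGACNNNGC, the core of the antioxidant response element, and TTCNNNGAA, the STAT palindrome. Windows were found for 9 of the 10 members, with none used here for Gstt2. The element core was in 12.4% and the STAT palindrome in 8.3% of 32851 promoter windows of the genome. Among the members, the core was found in the window of Gstm5 and the STAT letters in that of Mgst2, and neither was in the windows of the other 7. A match is a description of letters and not a binding site, and a window without a match says nothing on the factor. For 8 of the 9 members a window was set on the start of the gene as counted in the deposited table. For Gstt1 the RefSeq start lay 853 bases inside the gene as counted, so that its window is not the sequence before that gene's start and is not shown. The window of Gsto1 (chr19:47854723-47855022, plus strand) is shown because this gene was called in the same direction in both subsets in the comparisons that follow, and those of Gstm5 (chr3:107895604-107895903, plus strand) and Mgst2 (chr3:51660929-51661228, plus strand) because they hold the matches. Capitals mark the matches, TGACCACGC at -42 to -34 in Gstm5 and TTCTGTGAA at 39 to 47 in Mgst2, counted from the start.
Gsto1: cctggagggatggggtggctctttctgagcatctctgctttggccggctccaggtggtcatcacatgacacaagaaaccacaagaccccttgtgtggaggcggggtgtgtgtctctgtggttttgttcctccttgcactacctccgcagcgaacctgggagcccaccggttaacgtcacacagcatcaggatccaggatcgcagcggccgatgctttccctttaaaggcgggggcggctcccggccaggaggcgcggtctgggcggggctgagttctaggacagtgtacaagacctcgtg
Gstm5: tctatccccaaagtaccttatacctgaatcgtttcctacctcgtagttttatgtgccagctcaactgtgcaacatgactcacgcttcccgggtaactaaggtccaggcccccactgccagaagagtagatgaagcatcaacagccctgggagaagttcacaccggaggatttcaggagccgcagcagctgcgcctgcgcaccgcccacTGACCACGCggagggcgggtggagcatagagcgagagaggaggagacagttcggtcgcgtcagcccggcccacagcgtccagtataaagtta
Mgst2: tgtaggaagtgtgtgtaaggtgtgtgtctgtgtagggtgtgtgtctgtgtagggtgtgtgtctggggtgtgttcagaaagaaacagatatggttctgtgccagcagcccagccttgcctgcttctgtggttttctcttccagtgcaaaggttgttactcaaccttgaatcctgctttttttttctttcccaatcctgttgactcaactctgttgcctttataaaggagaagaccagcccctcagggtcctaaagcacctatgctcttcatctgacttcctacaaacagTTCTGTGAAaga

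The labels were checked against the genes that define them. Cd4 was at 1241 to 1887 CPM in CD4+ and at 0.356 to 2.73 CPM in CD8+ libraries, and Cd8a was at 589 to 1339 CPM in CD8+ and at 0.424 to 5.64 CPM in CD4+ libraries. Stat3 in CD4+ T cells was at 369 and 467 CPM in WT, at 140 and 164 CPM in STAT3-/-, and at 157 and 219 CPM in STAT3-/-PD-1-/- libraries. CD8+ T cells had, in the same order, 397 and 384 CPM, 149 and 136 CPM, and 154 and 235 CPM, so that every deleted library was below every WT library. As compared with WT, Stat3 was lower by 1.46 ± 0.22 (log2, SE) in CD4+ and by 1.46 ± 0.20 in CD8+ STAT3-/- T cells. Even this targeted gene missed the threshold after adjustment over all genes (adjusted p = 0.055 and 0.108, quasi-likelihood test of edgeR, adjusted by Benjamini-Hochberg). The same test gave every adjusted p in this report for which DESeq2 is not named. Stat3 passed in STAT3-/- against WT T cells of both subsets with DESeq2 (1.99e-07 and 3.62e-09) and with no filter on low counts (0.00263 and 0.00108), and in CD4+ T cells with the replicate number as a block (0.00197). Pdcd1 was at 247 and 235 CPM in WT, 261 and 323 CPM in STAT3-/-, and 55.1 and 26 CPM in STAT3-/-PD-1-/- CD4+ T cells, and at 376 and 307, 424 and 454, and 93.6 and 65.5 CPM in CD8+ T cells. In STAT3-/-PD-1-/- libraries Pdcd1 fell in both subsets (adjusted p = 0.00566 and 0.00243).

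Scaled by exon length, Gstp1, Gsto1, and Gstt2 made up most of the summed level of the 10 members in CD4+ T cells. In WT CD4+ T cells, Gstp1 was at 29.7 ± 4.34 CPM per kilobase (SD, n = 2), followed by Gsto1 at 22.3 ± 0.96 and Gstt2 at 21.9 ± 1.3 CPM per kilobase. The ranges of these last 2 genes overlapped, so that their order is not set. Gstm5, Gstt3, Mgst2, and Gstt1 came next at 4.57, 3.42, 3.21, and 2.52 CPM per kilobase, and Gstk1 and Mgst3 were lowest of the tested genes at 1.38 and 0.647 CPM per kilobase. In WT CD8+ T cells Gsto1 led at 45.2 ± 3.29 CPM per kilobase, above Gstp1 at 23.8 ± 1.61 and Gstt2 at 18.5 ± 1.37, and Mgst2 was the next at 13.6 ± 0.49 CPM per kilobase. The remaining tested members lay between 2.22 (Gstt3) and 4.43 (Gstm5) CPM per kilobase. A count of 0, as for Gstp2 in 5 libraries, allows up to 3 reads by counting error.

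**Figure D1:**
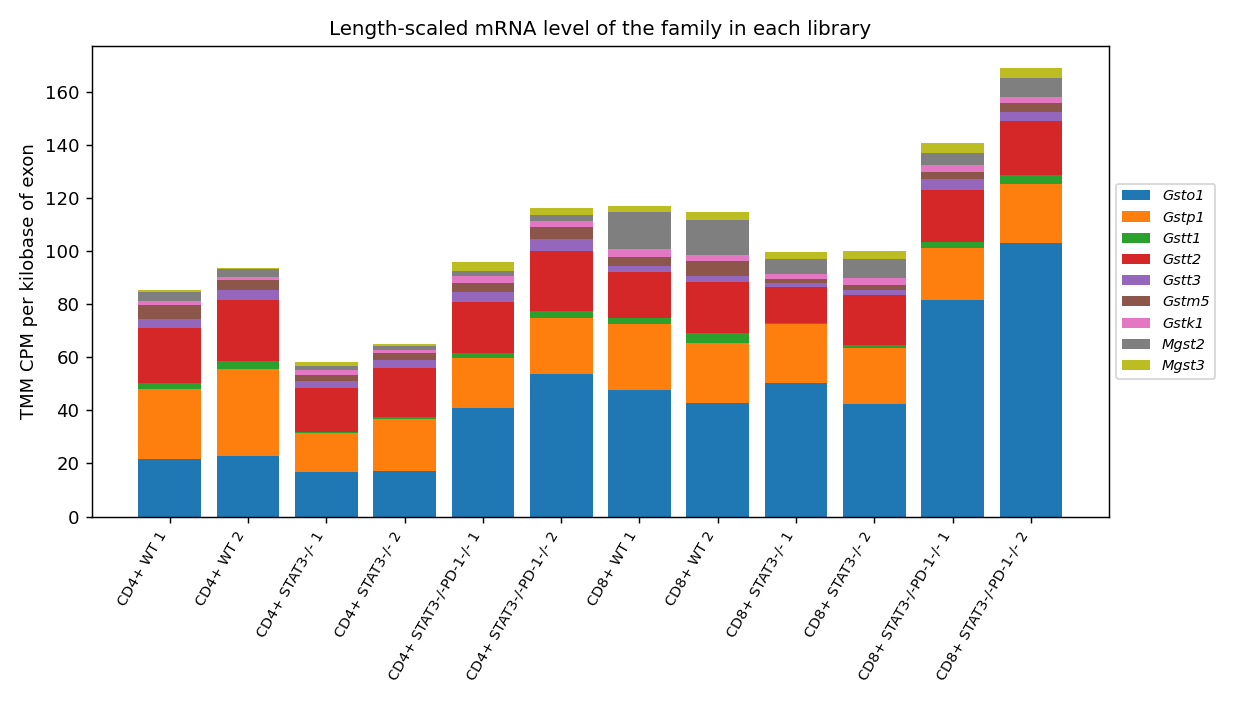
Stacked bars of CPM per kilobase of exon for each member (vertical axis) in each of the 12 libraries (horizontal axis), colored by gene. Within each subset the Gsto1 segment is tallest in the STAT3-/-PD-1-/- libraries, where it takes 42.8% and 46% of the CD4+ bars and 58% and 61% of the CD8+ bars.

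The summed level of the 10 genes in CD4+ T cells was 85.6 and 93.8 CPM per kilobase in WT, 58.4 and 65.2 in STAT3-/-, and 95.8 and 116 in STAT3-/-PD-1-/- libraries. The CD8+ sums, in the same order of genotypes, were 117 and 115, 99.6 and 99.9, and 141 and 169 CPM per kilobase. In both subsets the 3 genotypes did not overlap, with STAT3-/- lowest and STAT3-/-PD-1-/- highest. This order rested on Gsto1. Without it the sums in CD4+ T cells were 64 and 70.9 in WT, 41.6 and 48.2 in STAT3-/-, and 54.8 and 62.9 CPM per kilobase in STAT3-/-PD-1-/- libraries, and in CD8+ T cells 69.4 and 71.8, 49.4 and 57.5, and 59.1 and 65.9 CPM per kilobase, so that WT was highest in both subsets and STAT3-/- still lowest. Gsto1 took 25.2% and 24.5% of the sum in WT and 42.8% and 46% in STAT3-/-PD-1-/- CD4+ libraries, and its share in CD8+ libraries was 40.7% and 37.4% in WT against 58% and 61% in STAT3-/-PD-1-/- cells. Over the same groups the share of Gstp1 was 31.1% and 34.9% against 19.5% and 18.4% in CD4+, and 21.3% and 19.7% against 14% and 13.1% in CD8+ libraries. Gstp2 took at most 0.18% of the sum in any library.

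To see which members differed with STAT3 alone and with PD-1 deleted as well, the 3 genotypes were compared within each subset. In STAT3-/- against WT T cells no member passed an adjusted p of 0.05 in either subset, where 0.334% of the genes tested in CD4+ and 0.0583% in CD8+ T cells did. The estimate was negative for 7 of the 9 tested members in CD4+ and for 7 of 9 in CD8+ T cells, and the median log2 fold change over the members was -0.39 and -0.22, beside 0.01 and -0.01 over all genes tested. At an unadjusted p under 0.05 there were 4 members in CD4+ (Gstp1, Gstt1, Gstm5, Mgst2) and 3 in CD8+ T cells (Gstt1, Gstm5, Mgst2), where 1259 of 11959 and 1315 of 12002 genes did so, and DESeq2 called 1 (Gstt1 in CD4+) and 0. In STAT3-/-PD-1-/- against WT T cells, Gsto1 and Mgst3 were higher in CD4+ (12.9% of all genes passed), and Gsto1 was higher and Mgst2 lower in CD8+ T cells (17.2% of all genes passed). The median log2 fold change over the members in these 2 comparisons was -0.05 and 0.06, beside -0.01 and -0.001 over all genes. As compared with STAT3-/-, Gsto1 and Gstt1 were higher in CD4+ STAT3-/-PD-1-/- T cells (11.1% of all genes passed), and Gsto1, Gstt1, and Gstt3 were higher in CD8+ ones (16.8% of all genes passed). With 2 or 3 of 9 members called, the share is near enough to these backgrounds that it is no result about the family as a whole. The library numbers in the labels form 2 runs, which split the libraries as the replicate numbers do. With the replicate number as a block, the members called were Gstp1 and Gstt1 in CD4+ and none in CD8+ STAT3-/- against WT T cells. Against WT, the block added Gstp1 in CD4+ and Gstt3 in CD8+ STAT3-/-PD-1-/- T cells, and against STAT3-/- it added Gstt3 and Mgst3 in CD4+ and Gstm5 in CD8+ ones. Over all genes it gave 303, 3104, and 3105 calls in the 3 CD4+ comparisons, in place of 40, 1538, and 1324, and 9, 2965, and 2932 calls in the 3 CD8+ ones, in place of 7, 2066, and 2017. The block takes the difference between replicates to be alike in every genotype. Across genes, that difference had r = 0.561 in CD4+ and 0.593 in CD8+ T cells between WT and STAT3-/-. Between STAT3-/-PD-1-/- and the other genotypes of a subset r was 0.068 to 0.268, so that calls the block added there rest on a weak likeness. The comparisons with WT share the WT libraries, and those of STAT3-/-PD-1-/- T cells share the STAT3-/-PD-1-/- libraries.

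**Figure D2:**
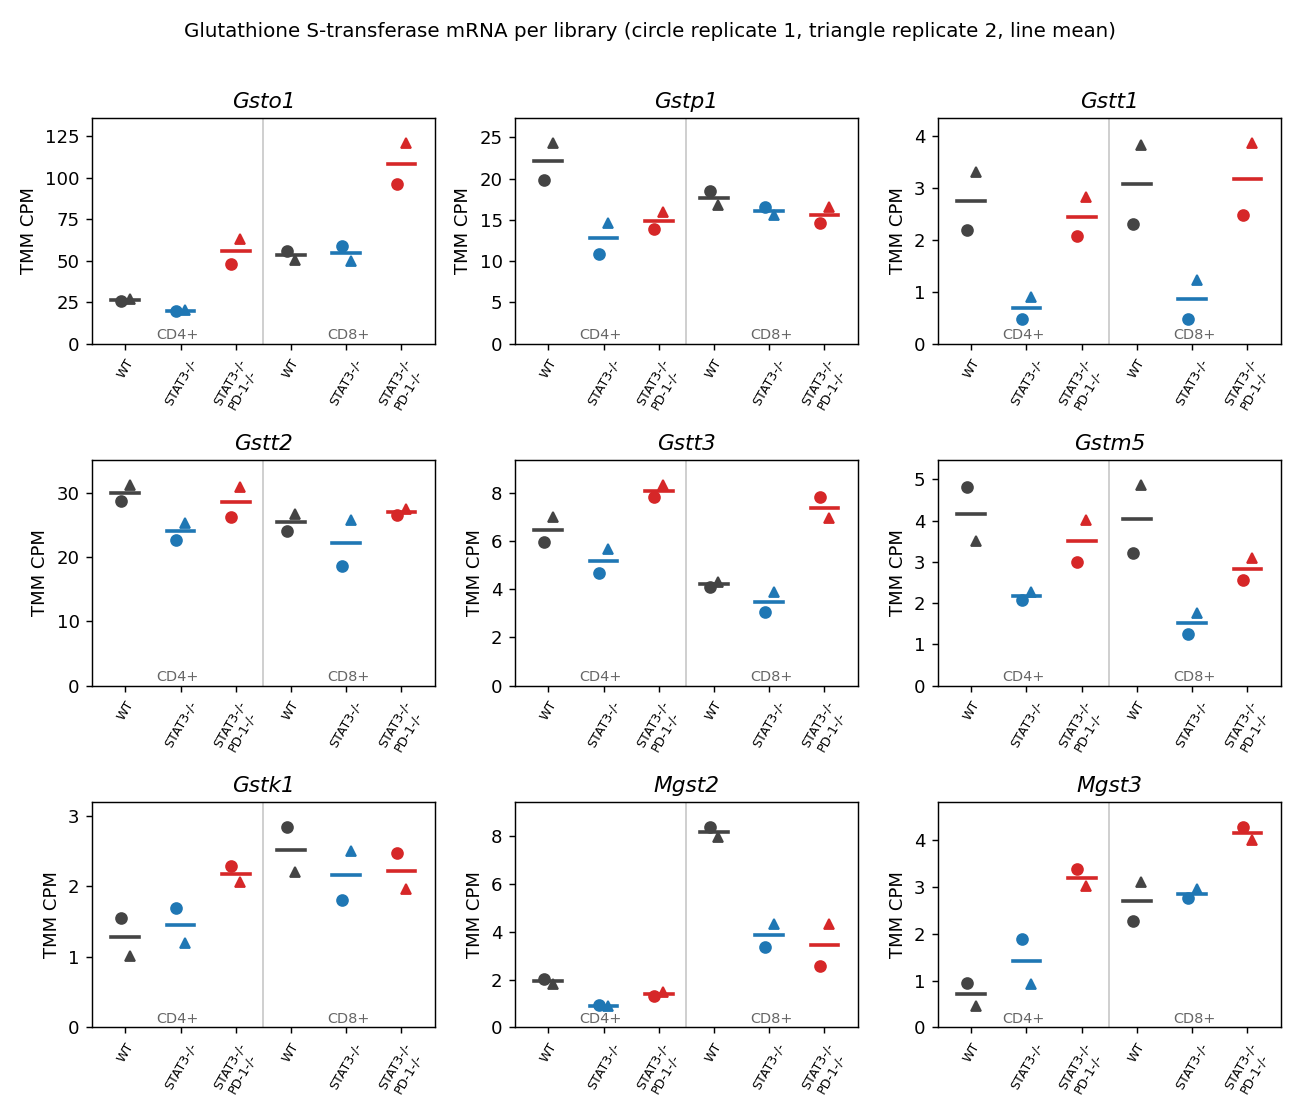
CPM of each member (vertical axis, linear, from 0) in every library by donor genotype (horizontal axis), with CD4+ T cells on the left and CD8+ T cells on the right of each panel, a circle for replicate 1, a triangle for replicate 2, and a line at the mean. Gsto1 is highest in STAT3-/-PD-1-/- libraries of each subset, Gstt1 is lowest in STAT3-/- libraries, and Mgst2 is highest in WT CD8+ libraries.

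Gsto1, the omega-class enzyme, which reduces dehydroascorbate and mixed disulfides rather than conjugating drugs, is encoded on the plus strand of chromosome 19 (mm10, 47854973 to 47864788). In CD4+ T cells it was at 25.4 and 27 CPM in WT, at 19.8 and 20 CPM in STAT3-/-, and at 48.2 and 63 CPM in STAT3-/-PD-1-/- libraries. CD8+ libraries of the 3 genotypes, in that order, were at 56 and 50.5, 59 and 49.9, and 96 and 121 CPM. STAT3-/-PD-1-/- libraries were above all others of their subset, and WT and STAT3-/- libraries overlapped in CD8+ T cells. As compared with WT, Gsto1 was 2.16-fold higher in CD4+ STAT3-/-PD-1-/- T cells (log2 fold change 1.11 ± 0.18 SE, adjusted p = 0.0106) and 2.06-fold higher in CD8+ ones (1.04 ± 0.16, adjusted p = 0.00894). As compared with STAT3-/-, it was 2.83-fold higher in CD4+ (1.503 ± 0.184, adjusted p = 0.0078) and 2.02-fold higher in CD8+ T cells (1.01 ± 0.16, adjusted p = 0.0103). In the same comparisons the log2 ratios of same-numbered libraries were 0.93 and 1.22, 0.78 and 1.26, 1.29 and 1.66, and 0.70 and 1.28. In STAT3-/- against WT T cells Gsto1 had a log2 fold change of -0.39 ± 0.18 in CD4+ cells and one of 0.03 ± 0.16 in CD8+ cells, with adjusted p = 0.518 and 0.973. Its call was lost when replicate 2 of the STAT3-/-PD-1-/- T cells of that subset was left out (adjusted p = 0.0901 and 0.0866 in CD4+, 0.0693 and 0.0818 in CD8+), without WT replicate 1 in CD4+ (0.0511, against WT), and without STAT3-/- replicate 2 in CD8+ T cells (0.051, against STAT3-/-). In these fits 1 library stands for a group and is taken to vary like the rest, and without CD4+ STAT3-/-PD-1-/- replicate 2 no gene in the table passed against STAT3-/-. The genes on either side of the omega locus, Cfap43 and Itprip, were called in no genotype comparison.

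The theta-class genes Gstt3, Gstt1, and Gstt2 lie in this order in a cluster on the minus strand of chromosome 10, between Ddt, 743 bases from Gstt3, and Mif, 24472 bases from Gstt2. A further theta gene, Gstt4 (75814944 to 75822543), lies between Gstt1 and Gstt2 and had 0 to 3 reads per library. Theta enzymes act on small halogenated compounds, and Gstt2 also on sulfate esters. Gstt1 (75783813 to 75798584) was low, with 10 to 96 reads per library. It was at 2.18 and 3.3 CPM in WT, at 0.471 and 0.889 CPM in STAT3-/-, and at 2.08 and 2.82 CPM in STAT3-/-PD-1-/- CD4+ T cells. In CD8+ T cells it was at 2.31 and 3.83, 0.475 and 1.23, and 2.48 and 3.88 CPM. In each subset the STAT3-/- libraries were below the WT and STAT3-/-PD-1-/- libraries, which overlapped with each other. The log2 fold change of STAT3-/- against WT was -1.995 ± 0.438 in CD4+ (adjusted p = 0.156) and -1.84 ± 0.51 in CD8+ T cells (adjusted p = 0.301), and neither passed. In CD4+ T cells Gstt1 passed with DESeq2 (adjusted p = 0.0205), with no filter on low counts (0.0371), and with the replicate block (0.0228). As compared with STAT3-/-, Gstt1 was 3.61-fold higher in CD4+ STAT3-/-PD-1-/- T cells (1.85 ± 0.44, adjusted p = 0.039) and 3.73-fold higher in CD8+ ones (1.90 ± 0.51, adjusted p = 0.0457). Over the alternative fits, this log2 fold change ran from 1.466 to 2.397 in CD4+ and from 1.376 to 2.753 in CD8+ T cells. Against WT the values were -0.14 ± 0.39 and 0.06 ± 0.47, with adjusted p = 0.847 and 0.947. The calls against STAT3-/- were lost without STAT3-/- replicate 1 (0.0957 and 0.128), STAT3-/-PD-1-/- replicate 1 (0.0914 and 0.078), or STAT3-/-PD-1-/- replicate 2 (0.242 and 0.226).

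Gstt3 (75774117 to 75781422) was at 5.95 and 6.98 CPM in WT, 4.66 and 5.65 CPM in STAT3-/-, and 7.83 and 8.34 CPM in STAT3-/-PD-1-/- CD4+ T cells. Its CD8+ values, in the same order, were 4.09 and 4.31, 3.06 and 3.88, and 7.82 and 6.94 CPM. The genotypes did not overlap in either subset and had the same order, STAT3-/- lowest and STAT3-/-PD-1-/- highest. The 1 comparison that passed was STAT3-/-PD-1-/- against STAT3-/- CD8+ T cells, at 2.14-fold (1.10 ± 0.23, adjusted p = 0.0242), and leaving out any of these 4 libraries raised the adjusted p to between 0.0754 and 0.11. Against WT, CD8+ STAT3-/-PD-1-/- T cells were just outside the threshold (0.82 ± 0.23, adjusted p = 0.0514), and inside it with DESeq2 (0.0365), with no filter on low counts (0.0468), and with the replicate block (0.0371). CD4+ STAT3-/-PD-1-/- against STAT3-/- T cells gave 0.67 ± 0.23 (adjusted p = 0.11, and 0.0405 with the replicate block). Of the 51-base stretches of Gstt3 transcripts, 12.4% also occur in another gene, mainly the overlapping model Gm20441. Gstt2 (75831845 to 75834881) was the most even of the class, at 22.7 to 31.3 CPM in CD4+ and 18.6 to 27.5 CPM in CD8+ libraries. Its log2 fold changes in the 6 genotype comparisons lay between -0.32 and 0.30, and none passed (adjusted p from 0.3 to 0.877). Of the outer neighbors, Mif, a cytokine gene, was higher in STAT3-/-PD-1-/- T cells against WT (1.03 ± 0.22, adjusted p = 0.0244 in CD4+; 0.95 ± 0.20, adjusted p = 0.0209 in CD8+), and Ddt was at 0.22 ± 0.18 and -0.02 ± 0.16, with adjusted p = 0.469 and 0.946.

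**Figure D3:**
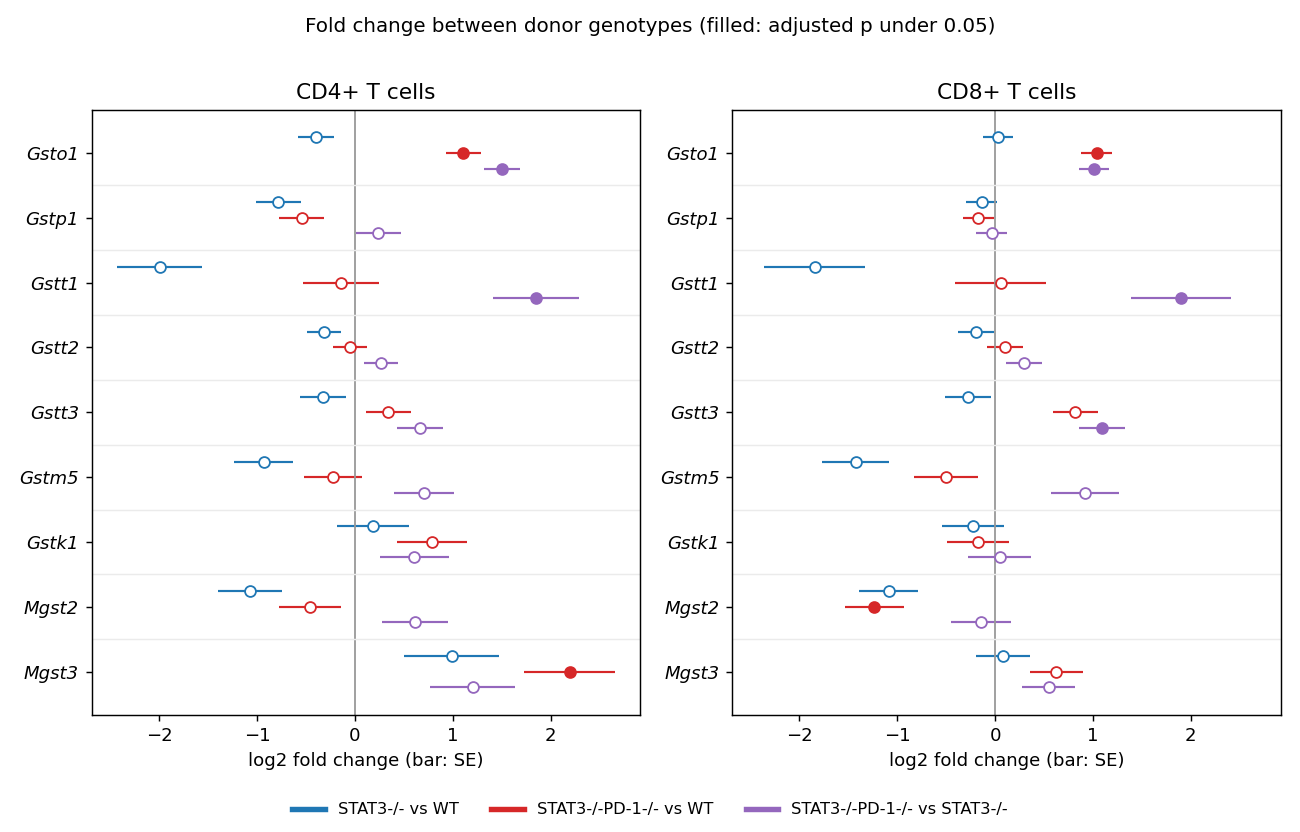
Log2 fold change (horizontal axis, bars of 1 SE) of the 9 tested members (vertical axis) between donor genotypes in CD4+ and CD8+ T cells, with filled points where the adjusted p was under 0.05. Gsto1 is filled in the 4 comparisons of STAT3-/-PD-1-/- T cells, while all points for STAT3-/- against WT are open.

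Gstp1, the pi-class enzyme and the most abundant member per kilobase in WT CD4+ T cells, is encoded on chromosome 19 (4035411 to 4037912, minus strand). It was at 19.8 and 24.4 CPM in WT, 10.9 and 14.7 CPM in STAT3-/-, and 13.9 and 16 CPM in STAT3-/-PD-1-/- CD4+ T cells, and both deleted genotypes were below WT. The CD8+ values were 18.5 and 16.9, 16.6 and 15.6, and 14.6 and 16.5 CPM, closer to each other. The log2 fold change against WT in CD4+ T cells was -0.78 ± 0.23 in STAT3-/- (adjusted p = 0.259) and -0.54 ± 0.23 in STAT3-/-PD-1-/- T cells (adjusted p = 0.164), and in CD8+ T cells -0.14 ± 0.16 and -0.17 ± 0.16 (adjusted p = 0.812 and 0.489). With the replicate block both CD4+ differences passed (adjusted p = 0.0494 and 0.0395). Gstp1 shared 33.5% of its 51-base stretches, the read length, with Gstp2, and reads of these could be counted to either gene or dropped. Gstp2 shared 54.1% of its own stretches with other genes. It had 0 to 3 reads per library, against 232 to 576 for Gstp1. The counts of this pair are uncertain in the shared stretches.

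Gstm5, the mu-class member, on chromosome 3 (107895854 to 107898685), was at 4.82 and 3.51 CPM in WT, 2.07 and 2.27 CPM in STAT3-/-, and 2.99 and 4.01 CPM in STAT3-/-PD-1-/- CD4+ T cells. In CD8+ T cells it was at 3.2 and 4.87, 1.25 and 1.76, and 2.56 and 3.1 CPM. STAT3-/- libraries were below all others of their subset. The log2 fold change of STAT3-/- against WT was -0.93 ± 0.31 for CD4+ and -1.42 ± 0.34 for CD8+ T cells, and neither passed (adjusted p = 0.314 and 0.275). STAT3-/-PD-1-/- T cells were at 0.71 ± 0.31 and 0.92 ± 0.35 against STAT3-/- (adjusted p = 0.173 and 0.108), and the latter passed with the replicate block (0.0422). Gstm5, whose window holds the element core shown above, overlaps the antisense gene 4933431E20Rik, with which it shares 9.36% of its 51-base stretches, and the log2 fold change of that gene in STAT3-/- against WT was -0.46 ± 0.37 for CD4+ and -0.85 ± 0.32 for CD8+ T cells. Whether reads were counted by strand was not given in the sources used here. Reads from the stretches that this pair shares therefore cannot be told apart. Gstk1, on chromosome 6 (42245935 to 42250441), was at 1.02 to 2.29 CPM in CD4+ and 1.81 to 2.85 CPM in CD8+ libraries and passed in none of the 6 comparisons. Its largest log2 fold change between genotypes was 0.79 ± 0.36, in CD4+ STAT3-/-PD-1-/- against WT T cells (adjusted p = 0.196).

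Mgst2, a microsomal enzyme that can make leukotriene C4, is encoded on chromosome 3 (51661179 to 51682674). In CD8+ T cells it was at 8.4 and 7.99 CPM in WT, at 3.37 and 4.33 CPM in STAT3-/-, and at 2.56 and 4.33 CPM in STAT3-/-PD-1-/- libraries. In CD4+ T cells it was at 2.05 and 1.82, 0.942 and 0.889, and 1.3 and 1.47 CPM. In each subset, both deleted genotypes were below WT. CD8+ STAT3-/-PD-1-/- T cells had 0.425 times the WT level (-1.24 ± 0.30, adjusted p = 0.0334), and leaving out any of these 4 libraries raised the adjusted p to between 0.0665 and 0.103. STAT3-/- against WT T cells gave -1.07 ± 0.33 in CD4+ and -1.09 ± 0.30 in CD8+ T cells, with adjusted p = 0.286 and 0.298. STAT3-/-PD-1-/- against STAT3-/- T cells gave 0.61 ± 0.33 and -0.15 ± 0.31, with adjusted p = 0.265 and 0.773.

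Mgst3, a microsomal enzyme that reduces lipid peroxides with glutathione, is encoded on chromosome 1 (167371966 to 167393841). It was at 0.955 and 0.466 CPM in WT, 1.88 and 0.933 CPM in STAT3-/-, and 3.38 and 3.02 CPM in STAT3-/-PD-1-/- CD4+ T cells, from 11 to 78 reads per library. In CD8+ T cells it was at 2.27 and 3.11, 2.76 and 2.94, and 4.29 and 4 CPM. STAT3-/-PD-1-/- libraries were above all others of their subset. As compared with WT, Mgst3 was 4.57-fold higher in CD4+ STAT3-/-PD-1-/- T cells (2.19 ± 0.47, adjusted p = 0.0246). The same comparison in CD8+ T cells gave 0.63 ± 0.27, with adjusted p = 0.151. As compared with STAT3-/-, CD4+ STAT3-/-PD-1-/- T cells were at 1.203 ± 0.438 (adjusted p = 0.119, and 0.0273 with the replicate block). The CD4+ call was lost without WT replicate 2 (adjusted p = 0.114), STAT3-/-PD-1-/- replicate 1 (0.119), or STAT3-/-PD-1-/- replicate 2 (0.132).

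The subsets were then compared within each genotype, in a fit of all 12 libraries. In WT, CD8+ T cells had more Gsto1 (1.02 ± 0.17, adjusted p = 0.00379), Mgst2 (2.08 ± 0.28, adjusted p = 0.00126), and Mgst3 (1.93 ± 0.40, adjusted p = 0.013) than CD4+ T cells, where 10.5% of all genes passed. These are folds of 2.03, 4.23, and 3.80, and no CD4+ library of WT reached a CD8+ one in the 3 genes. The log2 fold change of Mgst3 ran from 1.487 to 2.526 over the alternative fits. In STAT3-/- T cells, Gsto1 (1.45 ± 0.17, adjusted p = 0.000679) and Mgst2 (2.07 ± 0.30, adjusted p = 0.00242) were higher in CD8+ T cells, with 9.62% of all genes called. The same genes were higher in STAT3-/-PD-1-/- CD8+ T cells (Gsto1 0.97 ± 0.17, adjusted p = 0.0102; Mgst2 1.31 ± 0.29, adjusted p = 0.032), with 4.14% of all genes called. No member was called lower in CD8+ T cells in this fit. With the pool of livers as a block, which the shared livers allow, 5 members passed in WT, the further ones being Gstk1 (0.98, adjusted p = 0.0305) and Gstt3, which was lower in CD8+ T cells (-0.62, adjusted p = 0.0183), and 3 passed in STAT3-/- T cells, with Gstt3 again lower (-0.57, adjusted p = 0.0321). Over all 12334 genes this block gave 2991 and 3077 calls in these 2 comparisons, in place of 1294 and 1187. Mgst3 did not pass without CD4+ WT replicate 2 (0.109) or CD8+ WT replicate 2 (0.0834). In STAT3-/-PD-1-/- T cells, Gsto1 did not pass without CD4+ replicate 1 (0.0974) or CD8+ replicate 2 (0.0894), nor Mgst2 without CD4+ replicate 1 (0.215), CD4+ replicate 2 (0.135), or CD8+ replicate 2 (0.256).

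**Figure D4:**
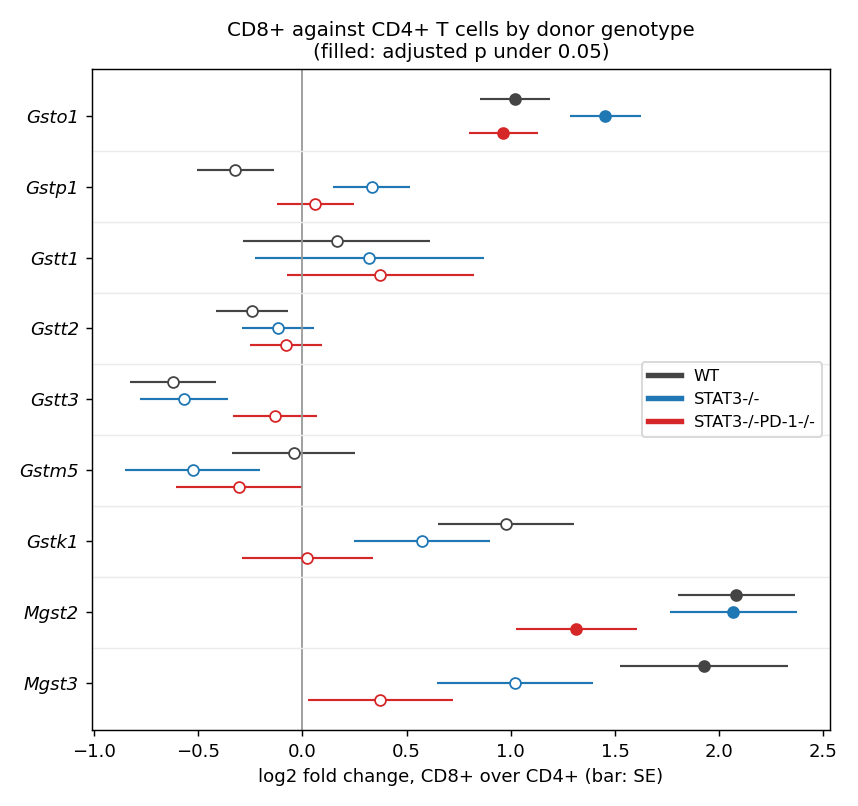
Log2 fold change of CD8+ over CD4+ T cells (horizontal axis, bars of 1 SE) of the 9 tested members (vertical axis) in the 3 donor genotypes, with filled points where the adjusted p was under 0.05. Gsto1 and Mgst2 are filled and to the right of 0 in each genotype, and Mgst3 is filled in WT.

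An interaction term was used to ask if a genotype difference was unequal in the 2 subsets. No member passed. For STAT3-/- against WT, 0% of the 12334 genes passed (228 at an unadjusted p under 0.05, 5 by DESeq2), and for STAT3-/-PD-1-/- against WT 0.00811% did (1 gene, 547 at an unadjusted p under 0.05, 75 by DESeq2). The estimates with the least unadjusted p were those of Mgst3, whose difference from WT in STAT3-/-PD-1-/- T cells was lower in CD8+ than in CD4+ T cells by 1.55 ± 0.53 (adjusted p = 0.712), and of Gstp1, whose difference from WT under STAT3-/- donors was 0.65 ± 0.26 higher in CD8+ T cells (adjusted p = 1). For Gsto1 in STAT3-/-PD-1-/- T cells the interaction was -0.06 ± 0.23.

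Of 20 other genes of the GST family and its relatives in the table, 7 had enough reads to be tested for genotype in each subset. Gstm1, a mu-class enzyme abundant in liver, rose in STAT3-/-PD-1-/- T cells of both subsets. It was at 0.773 and 1.02 CPM in WT, 1.13 and 0.845 CPM in STAT3-/-, and 6.23 and 7.15 CPM in STAT3-/-PD-1-/- CD4+ T cells, and at 3.6 and 2.4, 3.37 and 3.23, and 8.22 and 10.4 CPM in CD8+ T cells. As compared with WT, these are differences of 2.91 ± 0.32 (adjusted p = 0.00408) and 1.65 ± 0.28 (adjusted p = 0.0113). Gstm1 shares 18.5% of its 51-base stretches with other genes, chiefly Gstm2-ps1. Its call did not hold without STAT3-/-PD-1-/- replicate 2 in either subset (adjusted p = 0.0525 and 0.081) or without CD8+ WT replicate 2 (0.054). Gsto2, the other omega gene, just downstream of Gsto1 (47865545 to 47886305), had 0 or 1 read in CD4+ libraries, and in CD8+ libraries 1 and 0 reads in WT, 2 and 2 in STAT3-/-, and 16 and 25 in STAT3-/-PD-1-/- T cells. In CD8+ T cells Gsto2 met the filter on low counts only through the STAT3-/-PD-1-/- libraries, in which it was high. Its call there against WT (adjusted p = 0.0108) depends on that filter, and no conclusion is drawn from it. The call did not hold without WT replicate 2 or STAT3-/-PD-1-/- replicate 2. Hpgds, a sigma-class GST that makes prostaglandin D2, fell in STAT3-/-PD-1-/- against WT T cells, with 30 and 23 reads in WT, 8 and 14 in STAT3-/-, and 4 and 4 in STAT3-/-PD-1-/- libraries of CD4+ cells (-2.75 ± 0.52, adjusted p = 0.0165), and 69 and 66, 17 and 26, and 2 and 10 reads in those of CD8+ cells (-3.46 ± 0.57, adjusted p = 0.011). Its call was lost in CD4+ T cells without WT replicate 1 or either STAT3-/-PD-1-/- library, and in CD8+ T cells without STAT3-/-PD-1-/- replicate 2. In CD8+ T cells the log2 fold change of Hpgds ran from -4.928 to -2.785 over the alternative fits.

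In all, 2 of the 7 were higher (Gstm1, Gstcd) and 1 lower (Hpgds) in CD4+ STAT3-/-PD-1-/- against WT T cells. In CD8+ ones 3 were higher (Gstm1, Gsto2, Gstcd) and 2 lower (Hpgds, Gstp3), beside the 12.9% and 17.2% of all genes. The CD8+ count includes Gsto2, which was tested only because of its reads in STAT3-/-PD-1-/- libraries. Gstcd, a gene with only the C-terminal GST domain, was at 0.76 ± 0.18 and 0.62 ± 0.17 (adjusted p = 0.0375 and 0.0479), and its call did not hold in CD4+ T cells when any 1 of the 4 libraries was left out (adjusted p from 0.0568 to 0.208), nor in CD8+ T cells without WT replicate 2 (0.226), STAT3-/-PD-1-/- replicate 1 (0.145), or replicate 2 (0.183), nor there with RLE size factors (0.0542). Gstp3, a further pi-class gene, was named after its values were seen. Its level per length was above that of every member in WT, at 39 CPM per kilobase in CD4+ and 68.1 CPM per kilobase in CD8+ T cells, and it was lower in CD8+ STAT3-/-PD-1-/- than in WT T cells (-0.49 ± 0.12, adjusted p = 0.032), with an adjusted p from 0.0695 to 0.152 when 1 of the 4 libraries was left out and of 0.0528 when they were fitted alone. None of the 7 was called in STAT3-/- against WT T cells. Gsta1 and Gsta2, alpha-class genes, were listed at 0 in every library. Of their 51-base stretches, 90.3% and 49% also occur in other genes, and how reads of such stretches were counted was not given in the sources used here.

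Other genes of glutathione metabolism were counted in lists made by function. In STAT3-/- against WT T cells no gene of these lists or of the 7 GST relatives was called by edgeR (11 of 65 in CD4+ and 5 of 66 in CD8+ T cells had an unadjusted p under 0.05, where 1259 of 11959 and 1315 of 12002 of all genes did), so that the counts that follow are for STAT3-/-PD-1-/- against WT T cells, CD4+ before CD8+. Over all genes, 7.21% and 9.01% were called higher and 5.65% and 8.21% lower in these comparisons, and a share near these is no result about a list. Of the genes of glutathione synthesis and amino acid import, 2 of 8 and 2 of 9 were higher and none lower, the 2 being the amino acid transporters Slc1a4 (1.81 ± 0.40 and 1.69 ± 0.30, adjusted p = 0.0276 and 0.0136) and Slc7a5 (1.04 ± 0.17 and 1.00 ± 0.28, adjusted p = 0.0101 and 0.0476). The synthesis enzymes themselves were not called. Gclc was at -0.07 and -0.01, Gclm at 0.29 and 0.34, and Gss at 0.44 and 0.49 (adjusted p = 0.161 and 0.0746 for Gss). Of the genes that reduce glutathione or supply NADPH, 1 of 8 and 3 of 8 were higher. Nnt, the mitochondrial transhydrogenase, was at 12.5 and 12.4 CPM in WT, 17.5 and 19.2 CPM in STAT3-/-, and 28 and 27.1 CPM in STAT3-/-PD-1-/- CD4+ T cells (1.17 ± 0.17 against WT, adjusted p = 0.00819) and rose by as much in CD8+ T cells (1.17 ± 0.22, adjusted p = 0.0166), in which G6pdx (0.44) and Pgd (0.50) of the pentose phosphate pathway were called as well. Gsr, glutathione reductase, was at 0.48 ± 0.17 and 0.35 ± 0.14 against WT (adjusted p = 0.11 and 0.117), and passed against STAT3-/- (0.98 ± 0.17 and 0.52 ± 0.14, adjusted p = 0.018 and 0.0426). That call of Gsr was lost in CD4+ T cells without STAT3-/- replicate 2 (0.0611), STAT3-/-PD-1-/- replicate 1 (0.0646), or replicate 2 (0.165), and in CD8+ T cells with any 1 of the 4 libraries left out (0.0596 to 0.249) or with these 4 fitted alone (0.0513), while the block brought the CD4+ difference from WT to 0.0497.

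**Figure D5:**
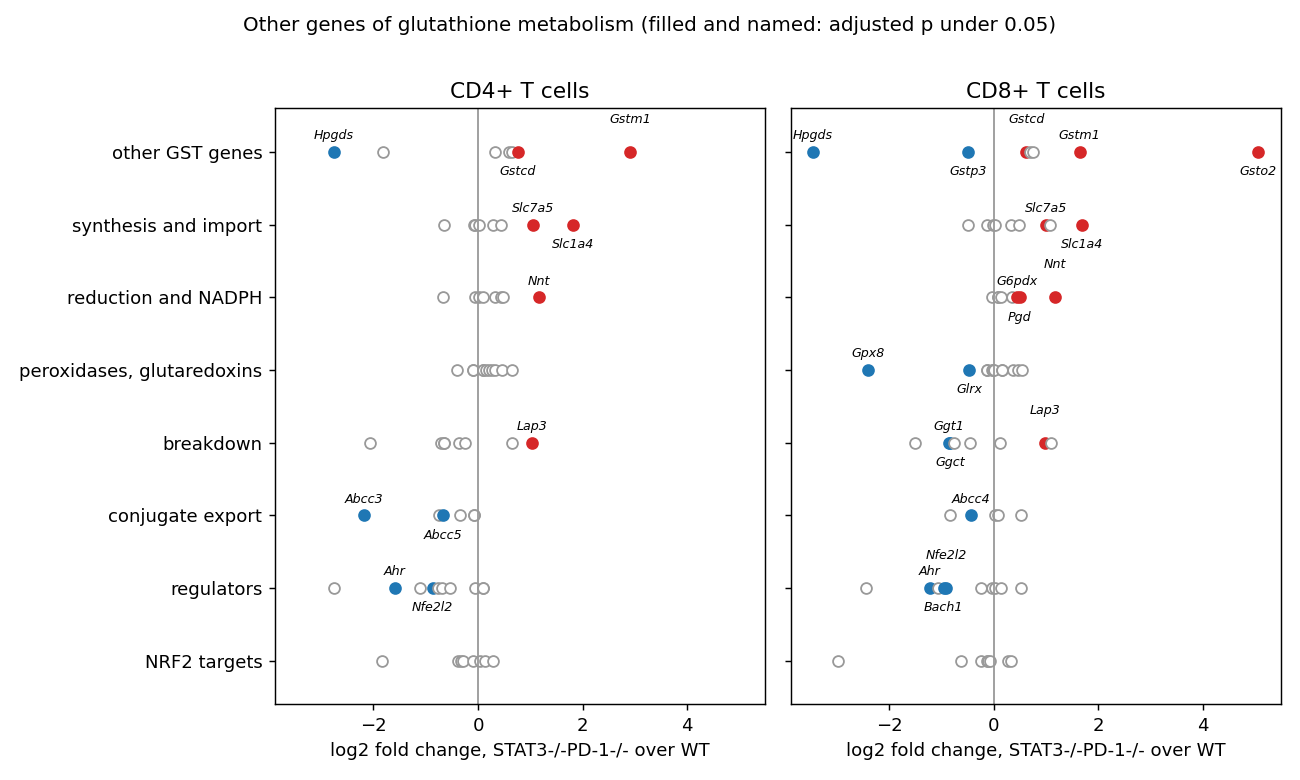
Log2 fold change of STAT3-/-PD-1-/- over WT (horizontal axis) for the tested genes of each glutathione list (vertical axis) in CD4+ and CD8+ T cells, 1 point per gene, filled and named where the adjusted p was under 0.05. The named regulators, Nfe2l2 and Ahr in both subsets and Bach1 in CD8+ T cells, lie left of 0, and Slc1a4, Slc7a5, Nnt, and Lap3 lie right of it in both subsets.

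Among glutathione peroxidases and glutaredoxins, 0 of 11 were called in CD4+ T cells (2 at an unadjusted p under 0.05, where 3438 of 11959 of all genes were). In CD8+ T cells 2 of 12 were lower (Gpx8 -2.40 and Glrx -0.47). Among genes that break glutathione down, the peptidase Lap3 was higher in both subsets (1.02 ± 0.19 and 0.98 ± 0.22, adjusted p = 0.0149 and 0.0248) as 1 of 8 tested, and Ggt1 (-0.86) and Ggct (-0.83) were lower in CD8+ T cells. Of the transporters that export glutathione conjugates, 2 of 6 were lower in CD4+ (Abcc3 -2.18 and Abcc5 -0.68) and 1 of 5 in CD8+ T cells (Abcc4 -0.44). Of 10 transcriptional regulators of the family, none was higher, and 2 and 3 were lower, beside 5.65% and 8.21% of all genes. For Maff of this list, which was not called, replicate 1 of WT and STAT3-/- stood apart. It was at 75.5 and 2.58 CPM in WT, 72.7 and 1.73 CPM in STAT3-/-, and 9.04 and 2.42 CPM in STAT3-/-PD-1-/- CD4+ T cells. Its CD8+ values were 35.8 and 1.64, 35.2 and 0.818, and 5.79 and 1.1 CPM. Mafk of this list and Slc3a2 of the import list, neither called, differed the same way to a lesser degree. In CD4+ T cells Mafk was at 158 and 57.8 CPM in WT, 139 and 45.8 CPM in STAT3-/-, and 51 and 47.4 CPM in STAT3-/-PD-1-/- libraries. Slc3a2 was at 337 and 152, 280 and 121, and 164 and 142 CPM. In CD8+ T cells Mafk was at 130 and 41.4, 111 and 34.3, and 44.3 and 37.05 CPM. Nfe2l2, which encodes NRF2, was at 41.9 and 31.2 CPM in WT, 41.3 and 31.9 CPM in STAT3-/-, and 18.5 and 20.8 CPM in STAT3-/-PD-1-/- CD4+ T cells, and at 39.9 and 30.8, 39.4 and 32.2, and 20.2 and 17.3 CPM in CD8+ T cells. STAT3-/-PD-1-/- libraries were below all others, at -0.87 ± 0.21 and -0.91 ± 0.18 against WT (adjusted p = 0.0361 and 0.0179). The call of Nfe2l2 did not hold in CD4+ T cells when any 1 of the 4 libraries was left out (adjusted p from 0.0515 to 0.183), nor in CD8+ T cells without WT replicate 1 (0.0678), STAT3-/-PD-1-/- replicate 1 (0.0629), or replicate 2 (0.117). Ahr, the aryl hydrocarbon receptor, fell in both subsets (-1.59 ± 0.18 and -1.22 ± 0.33, adjusted p = 0.00446 and 0.0437), Bach1 (-0.96) fell in CD8+ T cells, and Keap1, the inhibitor of NRF2, was at 0.10 and -0.03. Of 8 NRF2 target genes tested in each subset none was called by edgeR. At an unadjusted p under 0.05 there were 1 and 2, where 3438 of 11959 and 4079 of 12002 of all genes were.

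Over the 12 libraries, the genes with log2 CPM most like that of Gsto1 were Mthfd1l, Afg3l1, and Pmf1 (Pearson's r = 0.985, 0.977, and 0.977). For Gstp1 they were Gpc1, Usp36, and Scamp4 (r = 0.952, 0.926, and 0.873), and for Gstt2 Cnpy3, Tasor2, and Bbs4 (r = 0.923, 0.878, and 0.869). Between members r was 0.857 for Gstk1 and Mgst3, 0.812 for Gstt1 and Gstm5, 0.790 for Gsto1 and Mgst3, and 0.788 for Gstt1 and Gstt2. These values describe 12 libraries that fall into 6 groups and share genotype and subset.

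Several members are also made by hepatocytes and other liver cells, and the markers of those cells were therefore summed in each library. All 18 hepatocyte genes in the list were in the table, with a sum of 1.6 to 6.16 CPM per library and Trf as the most abundant, at 0.647 to 2.69 CPM. The sum was 2.05 and 4.23 CPM in WT, 1.79 and 3.38 CPM in STAT3-/-, and 2.47 and 5.2 CPM in STAT3-/-PD-1-/- CD4+ T cells, and 1.91 and 5.67, 1.6 and 2.66, and 3.93 and 6.16 CPM in CD8+ T cells. It was higher in replicate 2 of every group, and STAT3-/-PD-1-/- means were the highest of each subset. Trf, the gene of transferrin, was 3.31-fold higher in STAT3-/-PD-1-/- than in STAT3-/- CD8+ T cells (adjusted p = 0.0486). Gsto1, Gstt1, and Gstt3 were called higher in the same comparison. Of the 4 hepatocyte genes tested there, Trf was the 1 called, and all 4 estimates were above 0. Apoa2 was at 1.29 ± 0.42 (adjusted p = 0.0752), Hp at 1.46 ± 1.29 (0.462), and Alb at 0.455 ± 0.862 (0.613). Alb was below Trf in every CD8+ library, at 0.0889 to 0.519 CPM. Gsta3 and Mgst1, GST genes strongly made in hepatocytes, had 0 to 7 and 0 to 3 reads per library. Gstm1, also abundant in liver, went the other way, at 0.773 and 1.02 CPM in WT and 6.23 and 7.15 CPM in STAT3-/-PD-1-/- CD4+ T cells. In CD8+ T cells Gstm1 was at 3.6 and 2.4 CPM in WT and 8.22 and 10.4 CPM in STAT3-/-PD-1-/- libraries. Gsto1 alone was at 19.8 CPM or more. Summed macrophage markers (Cd68 highest, at 5.93 to 29.1 CPM) were at 10.3 and 22.2, 8.57 and 17.3, and 10.3 and 12.8 CPM in CD4+ T cells. In CD8+ T cells they were at 30.5 and 41.6, 28.3 and 37.3, and 18.2 and 20 CPM. Cd68 was lower in CD8+ STAT3-/-PD-1-/- than in WT T cells (-0.71 ± 0.13, adjusted p = 0.0154) and than in STAT3-/- T cells (-0.63 ± 0.13, adjusted p = 0.0232). In CD4+ STAT3-/-PD-1-/- T cells none of the 9 tested markers was called. Their median log2 fold change was -2.09 against WT and -1.57 against STAT3-/-, and Cd68 alone went the other way (0.18 and 0.57). C1qa was at 0.318 and 1.78 CPM in WT, 0.33 and 1.02 CPM in STAT3-/-, and 0.26 and 0.0397 CPM in STAT3-/-PD-1-/- CD4+ libraries. Of the dendritic cell list, Itgax and H2-Ab1, a class II antigen presentation gene, were called between genotypes. Itgax was at 392 and 363 CPM in WT CD8+ T cells against 27.8 and 20.2 CPM in STAT3-/-PD-1-/- ones (adjusted p = 0.000767). In that comparison Zbtb46 and H2-Ab1 went the other way (0.90 ± 0.80 and 0.50 ± 0.42) and were not called. Flt3, Xcr1, and Clec9a of the list had 0 to 3 reads per library. Itgax was also lower in CD4+ STAT3-/-PD-1-/- (-3.61, adjusted p = 0.00106) and CD4+ STAT3-/- T cells (-1.3, adjusted p = 0.0377) than in WT, and in STAT3-/-PD-1-/- against STAT3-/- T cells of both subsets (-2.31 in CD4+ and -3.26 in CD8+, adjusted p = 0.00332 and 0.000831), where Gsto1 and Gstt1 were higher. H2-Ab1 was at 1.41 and 2.46 CPM in WT, 2.31 and 3.42 CPM in STAT3-/-, and 4.67 and 5.6 CPM in STAT3-/-PD-1-/- CD4+ T cells and was higher in the last than in WT (1.43 ± 0.37, adjusted p = 0.044), as were Gsto1 and Mgst3, while Cd209a and Siglech were at 0. Neutrophil markers summed to at most 1.36 CPM, stellate cell markers to at most 1.23 CPM, and 5 of 6 erythroid markers were at 0. Summed B cell markers (Cd79b highest, Ms4a1 at 0) were at 1.63 to 2.41 CPM in CD4+ T cells, and in CD8+ T cells at 14.7 and 10.7 CPM in WT, 12.6 and 13.8 CPM in STAT3-/-, and 6.1 and 5.31 CPM in STAT3-/-PD-1-/- libraries. Summed natural killer cell markers (Klrb1c highest, Klra8 at 0) were at 14.2 to 26.5 CPM in CD4+ T cells, and in CD8+ T cells at 79.3 and 85.9, 61.9 and 82, and 46.6 and 29.9 CPM. Both sums were higher in CD8+ than in CD4+ T cells of every genotype and lower in STAT3-/-PD-1-/- than in WT CD8+ T cells, as was Mgst2. In CD8+ STAT3-/-PD-1-/- against WT T cells Klrb1c (-1.62 ± 0.38, adjusted p = 0.028) and Cd79b (-1.18 ± 0.22, adjusted p = 0.0149) were lower, and Eomes of the natural killer cell list, which T cells also express, was higher in the same comparison of CD4+ T cells (adjusted p = 0.0158). As compared with STAT3-/-, STAT3-/-PD-1-/- T cells had less Cd79b in CD8+ (-1.23 ± 0.22, adjusted p = 0.0143) and more Eomes in CD4+ T cells (1.14 ± 0.26, adjusted p = 0.034). Endothelial markers, led by Pecam1, which T cells also express, were at 111 to 198 CPM. Summed T cell markers were at 4791 to 7675 CPM and lowest in STAT3-/-PD-1-/- T cells of each subset. Of the 9 tested T cell markers, 1 was lower in CD4+ (Cd2, adjusted p = 0.045) and 4 were lower in CD8+ STAT3-/-PD-1-/- against WT T cells (Cd3d, Cd247, Lck, and Cd2, adjusted p from 0.00979 to 0.021), and the last 3 were also lower against STAT3-/- in CD8+ T cells (adjusted p from 0.0166 to 0.0432). Markers of the sorted subsets themselves fell as well. In STAT3-/-PD-1-/- against WT T cells, Cd4 (-0.52 ± 0.13, adjusted p = 0.0375) and Cd40lg (-1.01, adjusted p = 0.02) were lower in CD4+ T cells, and Cd8a (-1.09 ± 0.12, adjusted p = 0.00414) and Cd8b1 (-0.87 ± 0.11, adjusted p = 0.00531) in CD8+ T cells. Cd8a and Cd8b1 were also lower against STAT3-/- (-0.89 and -0.95, adjusted p = 0.007 and 0.00454). The part of these cells in the differences of Gsto1, Gstt1, Gstt3, Mgst2, and Mgst3 was not tested.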

How the data were processed

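RNA-Seq of 12 liver libraries of sorted donor T cells was analyzed from the table of counts deposited by the authors, who aligned single-end reads to mm10 (GRCm38) with STAR and assigned them to RefSeq genes by HTSeq-count, with no normalization. The deposited RPKM values, which the authors scaled by exon length and library size, served only as an alternative for levels. The strand setting and the treatment of reads with several matches are not given in the sources used here. The labels also carry a differentiation protocol of another cell type and a library kit unlike that of the study's methods, and these fields were not used. Columns were matched to samples by title, and 0 were left unmatched.

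Genes that passed filterByExpr (at least 10 counts, at least 15 in total) were scaled by TMM and tested with edgeR (version 4.0.16, R version 4.3.3, limma version 3.58.1) by quasi-likelihood, with p-values adjusted by Benjamini-Hochberg over all genes kept (11959 in CD4+, 12002 in CD8+, 12334 in all libraries) and called under 0.05. Genotype was fitted on the 6 libraries of each subset (3 residual degrees of freedom), and all 12 for subset and interaction (6). Each SE of a log2 fold change is its absolute value divided by the square root of the quasi-likelihood F statistic. Such an SE was not estimated by the fit itself and is least sure where the estimate or the counts are near 0. With 2 libraries against 2 an exact permutation test cannot go below p = 0.333 (2-sided), and none is given. Same-numbered CD4+ and CD8+ libraries of a genotype came from the same livers, per the study's supplement, and their deviations across genes had r = 0.545, 0.539, and 0.58, so that a block by pool was fitted too. The alternatives were DESeq2 (version 1.42.0), RLE size factors, no filter, a block by replicate number or pool, only the 4 libraries compared, and leaving out each library. Shared sequence was counted over 51-base stretches of GENCODE vM21 transcripts, and figures were drawn with matplotlib (version 3.10.9).

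The members and gene lists were chosen with earlier results of these data known. All members are named. Of the other lists, the glutathione enzymes Gclc, Gclm, Gss, and Gsr and the regulators Nfe2l2 and Keap1 are named. Up to 3 called genes per comparison with the largest change are named as well. Maff, Mafk, and Slc3a2 are given for their differences between replicates. The genes most alike are the 3 with the highest r among genes whose mean log2 CPM was 3 or more, for members at that level.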

Additional observations from a re-analysis of the deposited data

How the results depend on the processing

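No fold change of a member reversed after a call. The number of members called in STAT3-/- against WT CD4+ T cells rose from 0 to 1 with DESeq2 and with no filter on low counts (Gstt1 in each). With the replicate number as a block, it was 2 (Gstp1, Gstt1), it rose from 2 to 4 in CD4+ STAT3-/-PD-1-/- against STAT3-/- T cells (Gstt3 and Mgst3 added), and from 3 to 5 in CD8+ against CD4+ WT T cells, where the block by pool also gave 5 (Gstk1 and Gstt3 added). Same-numbered libraries of different genotypes had deviations with r = 0.561, 0.268, and 0.184 in CD4+ and 0.593, 0.138, and 0.068 in CD8+ T cells. The block ended no call of a member.

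Without 1 library, the number of members called was 0 to 1 in CD4+ and 0 to 1 in CD8+ STAT3-/-PD-1-/- against WT, 0 to 2 in CD4+ and 0 to 1 in CD8+ STAT3-/-PD-1-/- against STAT3-/-, 2 to 3 in WT, and 0 to 2 in STAT3-/-PD-1-/- CD8+ against CD4+ T cells. Without replicate 2 of the STAT3-/-PD-1-/- T cells of a subset no member was called in the genotype comparisons of that subset, and over all genes the count fell from 1538 to 63 and from 1324 to 0 in CD4+, and from 2066 to 112 and from 2017 to 2 in CD8+ T cells. Part of this is the lower number of samples. In these fits 30 member calls were lost, and 51 estimates that were not called crossed 0.

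Counts over all genes moved by more than 1.5 times in STAT3-/- against WT (40 in CD4+, and 271 with DESeq2, 165 with no filter, 303 with the block, 1 with only the 4 libraries; 7 in CD8+, and 218 with DESeq2, 66 with no filter, and 0 with only the 4 libraries), in CD4+ STAT3-/-PD-1-/- T cells (3104 against WT and 3105 against STAT3-/- with the block, 2100 against STAT3-/- with DESeq2), between subsets (2014, 1909, and 939 with the block and 2991, 3077, and 1774 with the block by pool in WT, STAT3-/-, and STAT3-/-PD-1-/-), and in the interactions (5 and 75 with DESeq2; for STAT3-/-PD-1-/- also 50 with no filter, 28 with the block, and 84 with the block by pool). Of 60 levels per length, 1 moved by more than 1 SD with the deposited RPKM (Gstt2 in CD8+ STAT3-/-PD-1-/- T cells, 19.7 against 20.4). With 10 to 100 reads in many libraries, Gstt1, Mgst3, Gstk1, and Mgst2 in CD4+ T cells are limited by counting as well as by the spread between pools.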
